A study of Ovis aries with 24 samples.

Results

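The genes described here are 6 genes of the vessel wall matrix and its turnover in sheep (Ovis aries): COL3A1, FBLN1 and DCN, which code for structural matrix proteins, MMP2, which codes for a matrix protease, TIMP1, which codes for an inhibitor of such proteases, and HYAL2, which codes for a hyaluronidase. They were taken by name: each probe of the array whose gene name or description names one of the 6 genes was used, without regard to its signal, which gave 12 probes of 15008, and the 6 genes stand among 650 named genes that could be tested. COL3A1 has 3 probes, HYAL2 has 1, and each of the other 4 genes has 2. All 12 were well above background on all 24 arrays, none was saturated and none carried an outlier flag, so no array dropped out of any of their values.

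The extracellular matrix gives a vessel wall its strength and recoil. Type III collagen forms fibres with type I collagen, fibulin 1 binds to elastic fibres and basement membranes, and decorin is a small proteoglycan that coats collagen fibrils. Gelatinase A, the product of MMP2, is a secreted protease that cuts denatured collagen and basement membrane proteins, the product of TIMP1 binds and blocks metalloproteinases, and the product of HYAL2 cuts long hyaluronan chains. The ductus arteriosus is the fetal vessel that carries blood past the lungs into the aorta. It constricts after birth and is then remodelled until it is closed for good.

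The study set the ductus arteriosus against the ascending aorta next to it at 3 stages, with 4 single-colour arrays for each vessel and stage: preterm ductus and preterm aorta from fetuses at 97 days of gestation (100 in the sample titles), near-term ductus and near-term aorta at 136 days (140 in the titles), where term is 145 days, and newborn ductus and newborn aorta at 12 hours after birth. Each group held 4 animals. The labels name no strain, treatment or genotype, and do not say whether a ductus and an aorta of the same number came from 1 animal. RNA came from whole segments of vessel, so a lower signal from fewer cells of a type cannot be told apart from less RNA per cell. The question the design addresses is how the vessels differ at each stage and how each changes before and after birth.

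Array by array, the 75th percentile of processed signal lay between 322.1 and 1143, and 66.2% to 94.4% of the spots were well above background. Correlations of whole arrays ran from 0.864 to 0.985 within groups, and no pair of the 276 held identical values. Spike-in controls gave 12 arrays a detection limit above 1.5, among them 2 preterm ductus, 3 preterm aorta, 2 near-term ductus, 3 near-term aorta, no newborn ductus and 2 newborn aorta arrays. Each stage lay on a slide of its own, with the ductus in the first slide column and the aorta in the second. Stage and slide therefore cannot be told apart, nor can vessel and slide column, whereas each comparison of vessels lies within 1 slide. Within the newborn slide the detection limit was above 1.5 on no ductus array and on 2 aorta arrays. The newborn comparison of vessels is therefore not balanced for the detection limit, nor is newborn minus near-term ductus. The 2 smooth muscle markers on the array that could be tested, CNN1 and MYLK, were well above background on all arrays of every group.

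Levels below are log2 of the signal relative to the 75th percentile of its own array, so a level of 0 is a signal at that percentile and 1 unit is a doubling. A level cannot be set against that of another probe. Each gene is given by its brightest probe, with its other probes beside it, and a difference is called where limma's adjusted p is under 0.05. Calls were recomputed under 12 other settings of the processing, 11 where preterm ductus is compared. The median over all 14000 tested probes was itself not 0 in these units: it was -0.21, -0.12 and -0.30 for ductus minus aorta in preterm, near-term and newborn animals, and, between stages, from -0.32 for newborn minus near-term ductus to 0.21 for near-term minus preterm ductus. The rank of a gene's difference among all probes, given below as a percentile, does not depend on that shift.

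Between the vessels, none of the 6 genes was called in preterm or near-term animals, and 3 were higher in newborn ductus than in newborn aorta: TIMP1 (2.19 ± 0.20, SE), DCN and HYAL2. In preterm animals limma called 0 of the 6, against 0.7% of all probes, and in near-term animals 0 of the 6, against 1.15%. An unadjusted p under 0.05 was reached by 4 of the 6 in preterm animals, against 11.2% of all probes, and by 2 in near-term animals, against 7.91%. With array weights 2 of the 6 were called in preterm and 1 in near-term animals, but no share of all probes is given for that setting. Array weights gained a call for 8 of 66 values of the 6 genes. In newborn animals the 3 higher genes stood against 4.84% of all probes called higher, and none of the 6 was lower, against 5.48% of all probes called lower and 10.3% called in either direction. The median difference of the 6 genes was -0.18 in preterm, -0.10 in near-term and 0.59 in newborn animals. By probe, 6 of the 12 were higher and 1 was lower in newborn ductus. The arrays of 2 groups lay apart, without overlap, for 5.95% of all probes between near-term and preterm ductus, 22.5% between newborn and near-term ductus, 22.9% between newborn and preterm ductus, 8.97% between near-term and preterm aorta, 11.4% between newborn and near-term aorta and 13.3% between newborn and preterm aorta.

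**Figure D1:**
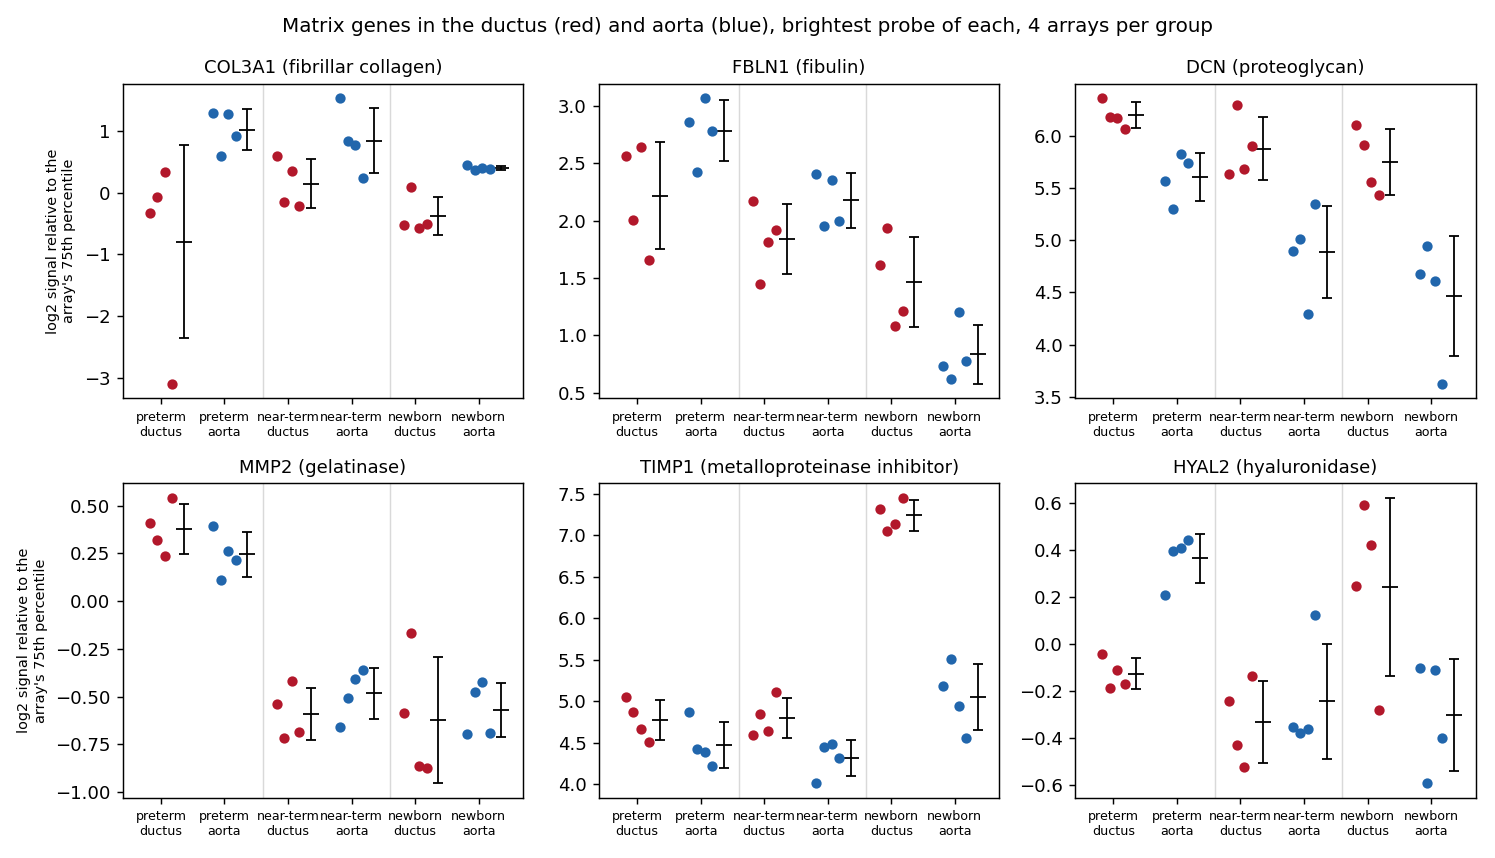
Log2 signal relative to the array's 75th percentile (y axis of each panel) of the brightest probe of each gene in the ductus (red) and aorta (blue) at each stage (x axis). Points are arrays, with the mean and SD of the 4 arrays in black. TIMP1 stands apart in newborn ductus, at 7.04 to 7.45, and 1 preterm ductus array lies at -3.10 for COL3A1.

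COL3A1, the gene of the fibrillar type III collagen, was read lower in the ductus than in the aorta at every stage on each of its 3 probes, but passed the test on 1 probe at 1 stage. On its brightest probe the level was -0.34, -0.07, 0.33 and -3.10 in preterm ductus, against 1.29, 0.60, 1.28 and 0.91 in preterm aorta. In near-term animals it was 0.60, -0.16, 0.36 and -0.22 in ductus, against 1.54, 0.83, 0.77 and 0.24 in aorta. In newborn animals it was -0.53, 0.09, -0.57 and -0.50 in ductus, against 0.44, 0.37, 0.40 and 0.38 in aorta. The preterm and the newborn arrays of the vessels did not overlap, which held for 8.4% and 21% of all probes, and the near-term arrays did. Preterm ductus replicate 4 lay far below every other array. The differences were -1.82 ± 0.49 in preterm (SE, adjusted p = 0.107), -0.70 ± 0.49 in near-term (0.921) and -0.78 ± 0.49 in newborn animals (0.268), where limma's shared spread includes that low array.

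The other COL3A1 probes, designed to another sequence record, gave the same order of the vessels. The second probe had -1.27, -0.87, -1.42 and -0.84 in newborn ductus, against 0.49, 0.43, 0.08 and -0.33 in newborn aorta, and this difference of -1.26 ± 0.38 was called (adjusted p = 0.0408). On the third probe the difference was -0.92 ± 0.42 (adjusted p = 0.158). On both of these probes ductus and aorta lay apart at every stage, against 8.4% of all probes in preterm, 6.34% in near-term and 21% in newborn animals. The nearest near-term arrays on the third probe were at -0.66 in ductus and -0.61 in aorta. Preterm ductus replicate 4 was low on all 3 probes, at -3.10, -2.97 and -3.53, and the preterm difference on the brightest probe was -1.82 with this array and -1.05 without it (adjusted p = 0.134). With that array left out of the shared spread, newborn ductus minus newborn aorta reached an adjusted p of 0.0543 at the same difference. Between stages the brightest probe was not called in either vessel. Newborn minus near-term ductus was -0.52 ± 0.49 on this probe (adjusted p = 0.449, 95% interval -1.55 to 0.50). With array weights it passed (-0.76, 0.0455), as did preterm ductus minus preterm aorta (-1.34, 0.0309). The other probes did not share this fall. The mean level on the second probe was -0.998 in near-term and -1.10 in newborn ductus. On the third probe it was -1.15 in near-term and -1.05 in newborn ductus, the opposite direction. On the arrays with a low detection limit, near-term ductus minus near-term aorta was -1.72 and passed (adjusted p = 0.0213), with 1 near-term aorta array left.

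FBLN1, the fibulin 1 gene, had a lower mean in ductus than in aorta before birth and a higher mean in ductus after it, and the newborn difference passed the test on 1 of its 2 probes. The level was 2.57, 2.01, 2.65 and 1.66 in preterm ductus, against 2.86, 2.43, 3.07 and 2.78 in preterm aorta. In near-term animals it was 2.18, 1.45, 1.81 and 1.92 in ductus, against 2.41, 1.95, 2.35 and 2.00 in aorta. In newborn animals it was 1.62, 1.94, 1.08 and 1.21 in ductus, against 0.74, 0.62, 1.21 and 0.78 in aorta. The arrays of the vessels overlapped at each stage on this probe. Ductus minus aorta was -0.57 ± 0.24 in preterm (SE, adjusted p = 0.378), -0.34 ± 0.24 in near-term (0.921) and 0.63 ± 0.24 in newborn animals (0.0945). On its other probe the newborn level was 1.86-fold higher in ductus with no overlap of the arrays, which held for 21% of all probes. This difference of 0.90 ± 0.23 was called (adjusted p = 0.0149). These signs were the same under each scaling and background correction that was tried.

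DCN, the decorin gene, had higher values in ductus than in aorta at every stage, with no overlap of the arrays on either probe, and was called in newborn animals. The level was 6.36, 6.18, 6.17 and 6.06 in preterm ductus, against 5.56, 5.30, 5.82 and 5.74 in preterm aorta. In near-term animals it was 5.63, 6.29, 5.68 and 5.90 in ductus, against 4.89, 5.01, 4.30 and 5.34 in aorta. In newborn animals it was 6.10, 5.91, 5.55 and 5.43 in ductus, against 4.67, 4.94, 4.61 and 3.63 in aorta. Of all tested probes, 8.4% had no overlap of the vessels in preterm, 6.34% in near-term and 21% in newborn animals. The difference was 0.59 ± 0.26 in preterm (SE, adjusted p = 0.393), 0.99 ± 0.26 in near-term (0.0717) and 1.28 ± 0.26 in newborn animals (0.00334), and it lay at percentiles 95.7, 98.7 and 97.3 of all probes at the 3 stages. Without near-term aorta replicate 4 the near-term difference was 1.14 and passed the test (adjusted p = 0.0497), and it passed under 4 of 12 other settings. The newborn call was kept with each array left out, and was lost with the groups of the comparison alone in the fit (adjusted p = 0.0734) and on the arrays with a low detection limit (0.94, adjusted p = 0.0554).

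**Figure D2:**
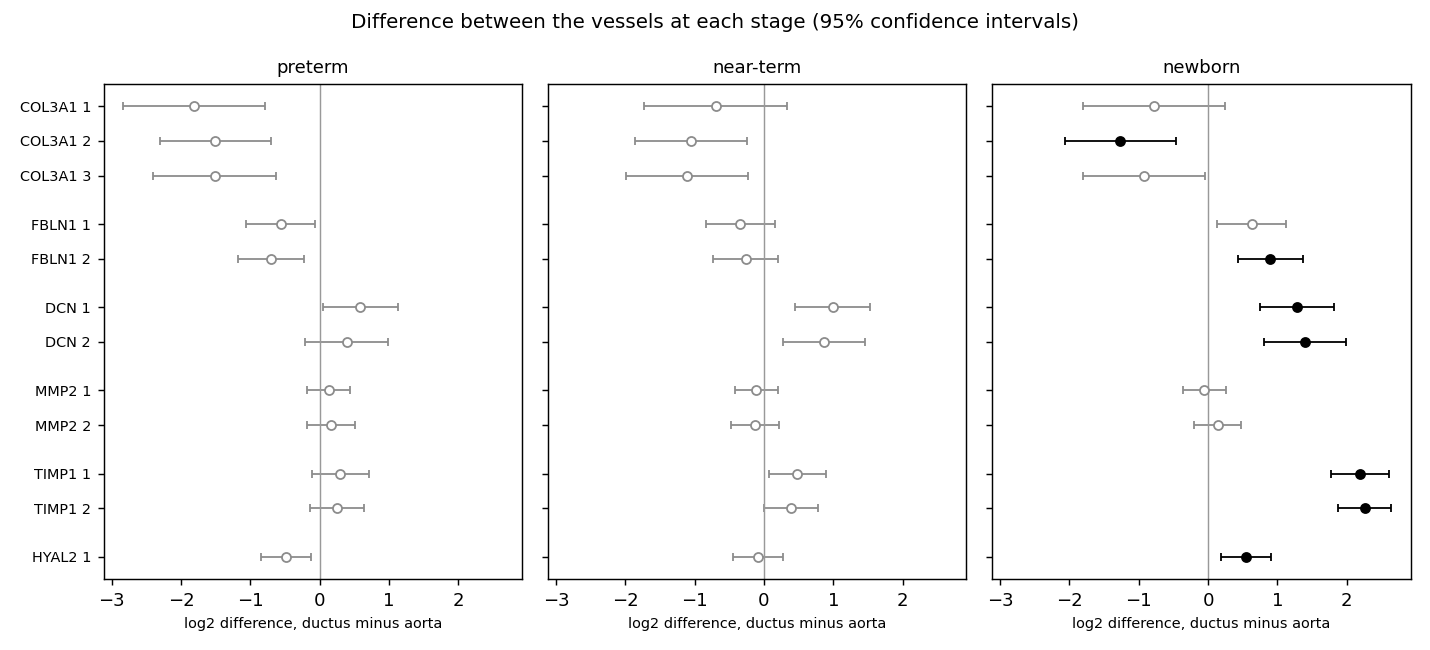
Log2 difference of ductus minus aorta (x axis) for each of the 12 probes, numbered by brightness within a gene (y axis), in preterm, near-term and newborn animals, with limma's 95% confidence interval. Filled black points were called (adjusted p under 0.05). All 3 COL3A1 probes lie below 0 and both DCN probes above 0 at each stage, and the FBLN1 probes lie below 0 before birth and above 0 after it.

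COL3A1 and DCN lay on opposite sides of 0 between the vessels. Within an array the log2 difference of DCN minus COL3A1 is free of the array's scaling. Centred on its mean over the 24 arrays, it ran from 0.59 to 3.91 in preterm ductus, against -0.98 to -0.43 in preterm aorta. The value of 3.91 was preterm ductus replicate 4, the array low for COL3A1, and the next highest was 1.44. The difference ran from -0.23 to 1.20 in near-term ductus, against -1.90 to -0.15 in near-term aorta, where the ranges overlapped. In newborn animals it ran from 0.57 to 1.38 in ductus, against -2.01 to -0.69 in aorta. This is a description of these brightest probes, with no test.

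MMP2, the protease gene, fell between the preterm and near-term stages in both vessels and was not called between the vessels at any stage. In ductus its level was 0.41, 0.32, 0.24 and 0.54 in preterm, -0.54, -0.72, -0.42 and -0.68 in near-term, and -0.59, -0.17, -0.86 and -0.87 in newborn animals. In aorta it was 0.39, 0.11, 0.26 and 0.21 in preterm, -0.66, -0.51, -0.41 and -0.36 in near-term, and -0.69, -0.47, -0.43 and -0.69 in newborn animals. All preterm arrays of both vessels lay above all near-term and newborn arrays. Near-term minus preterm ductus was -0.97 ± 0.15 (SE, adjusted p = 0.00368), a 1.96-fold lower level, and ranked at percentile 0.786 of all probes. Of the 6 genes MMP2 was the 1 called lower in this comparison, against 0.15% of all probes called lower, and none was called higher.

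In the aorta, near-term minus preterm was -0.73 ± 0.15 (adjusted p = 0.0306), 1.66-fold lower. MMP2 was again the 1 gene of 6 called, against 0.257% of all probes called lower. The aortic call was lost under 5 of 12 other settings (adjusted p up to 0.285) and without any 1 of preterm aorta replicates 1 to 4 or near-term aorta replicates 1 to 3 (adjusted p 0.0579 to 0.115), and the second probe gave -0.58 ± 0.16 (adjusted p = 0.147). On that probe the ductus difference was -0.87 ± 0.16 (adjusted p = 0.0216). The ductus call was kept with each array left out, but was lost with normexp background correction (-0.74, adjusted p = 0.0928), with median centring (-1.22, 0.0829), with the groups of the comparison alone in the fit (0.248) and on the arrays with a low detection limit (-0.98, 0.241). The signed change in ductus minus that in aorta was -0.24 ± 0.21 (adjusted p = 1.00, 95% interval -0.68 to 0.20).

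From near-term to newborn animals MMP2 differed by -0.03 ± 0.15 in ductus (95% interval -0.34 to 0.28) and by -0.09 ± 0.15 in aorta (-0.40 to 0.22). Newborn lay below preterm by 2.00-fold in ductus (adjusted p = 9.21e-05) and by 1.76-fold in aorta (0.00120), the last lost under 2 of 12 other settings (up to 0.166). Ductus minus aorta was 0.13 ± 0.15 in preterm (95% interval -0.18 to 0.44), -0.11 ± 0.15 in near-term (-0.42 to 0.20) and -0.05 ± 0.15 in newborn animals (-0.36 to 0.26). Of the newborn difference the sign changed with the probe, with normexp and with median centring.

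TIMP1, the inhibitor gene, was high in newborn ductus. In ductus its level was 5.05, 4.87, 4.66 and 4.51 in preterm, 4.59, 4.85, 4.64 and 5.11 in near-term, and 7.31, 7.04, 7.14 and 7.45 in newborn animals. In aorta it was 4.87, 4.42, 4.38 and 4.22 in preterm, 4.01, 4.45, 4.49 and 4.31 in near-term, and 5.18, 5.50, 4.94 and 4.56 in newborn animals. Each newborn ductus array lay above every other array of the study, and newborn aorta came next in the order of means, at 5.05 ± 0.40 (SD, n = 4), overlapping near-term ductus. Newborn minus near-term ductus was 2.44 ± 0.20 (SE, adjusted p = 1.84e-07), a 5.43-fold higher level, and its second probe gave 2.35 ± 0.19. The difference ranked at percentile 99.5 of all probes and was kept under all of the alternatives and with each array left out.

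In the same comparison HYAL2 was called too, so that 2 of the 6 genes were higher in newborn than in near-term ductus, against 4.16% of all probes called higher, and none was lower, against 6.85%, with 11% called in either direction. In aorta TIMP1 was higher in newborn than in near-term animals by 0.73 ± 0.20, a 1.66-fold higher level (adjusted p = 0.0315). These aortic arrays did not overlap, which held for 11.4% of all probes. There 1 of the 6 genes was higher, against 3.01% of all probes, and 1, FBLN1, was lower, against 3.36%, with 6.37% called in either direction. The aortic call of TIMP1 was lost under 4 of 12 other settings (adjusted p up to 0.251) and without near-term aorta replicate 1, 2 or 4 or newborn aorta replicate 1, 2 or 3 (adjusted p 0.0510 to 0.118). Its second probe was not called (0.48 ± 0.19, adjusted p = 0.139), and there the aortic arrays overlapped. The change in ductus exceeded that in aorta by 1.71 ± 0.28 (adjusted p = 0.00429), and by 1.87 ± 0.26 on the second probe (0.000945). For this difference of the changes around birth, an unadjusted p under 0.05 was reached by 3 of the 6 genes, against 7.99% of all probes. TIMP1 was the 1 gene of 6 called, against 0.407% of all probes, of which 0.35% were higher and 0.0571% lower. That call was kept with each array left out, and was lost with median centring (1.79, adjusted p = 0.222) and on the arrays with a low detection limit (0.92, adjusted p = 0.226).

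**Figure D3:**
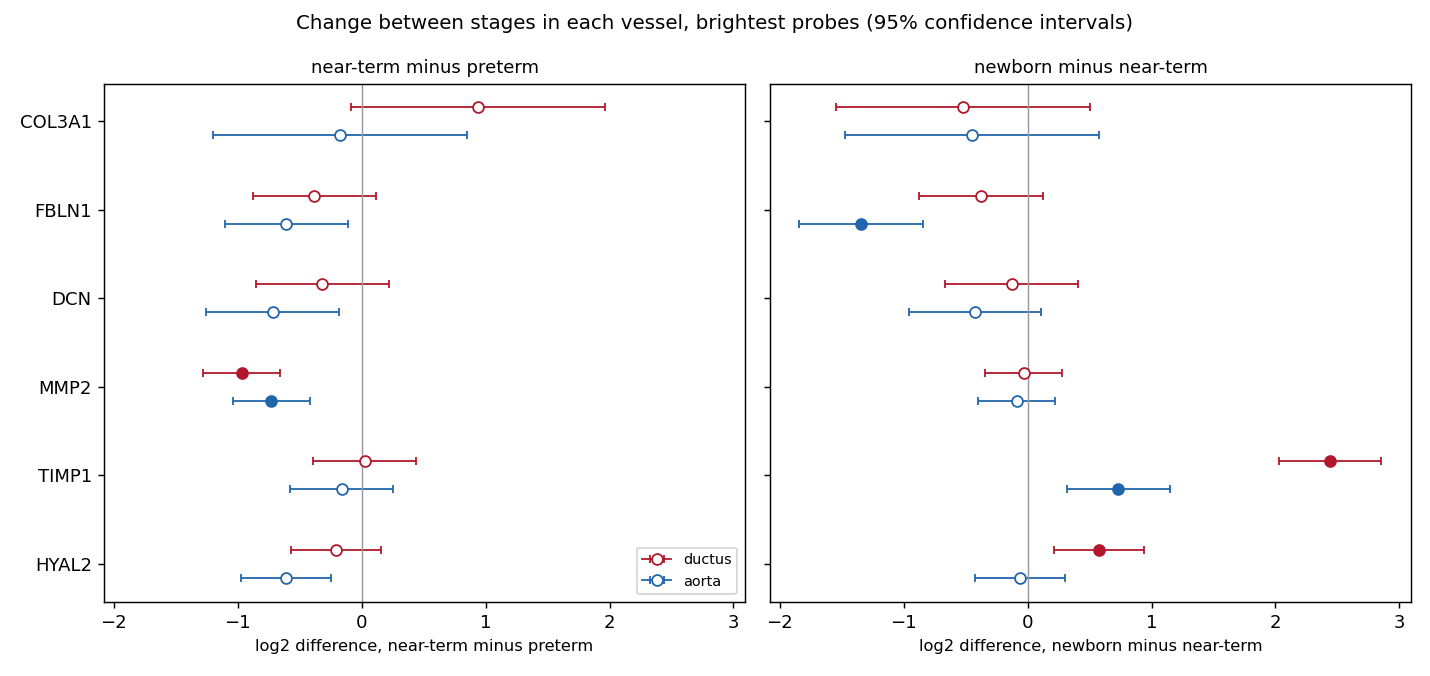
Log2 difference between successive stages (x axis) in ductus (red) and aorta (blue) for the brightest probe of each gene (y axis), with limma's 95% confidence interval. Filled points were called (adjusted p under 0.05). MMP2 is called between preterm and near-term animals in both vessels, and TIMP1 between near-term and newborn animals, at 2.44 in ductus and 0.73 in aorta.

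MMP2 was thus called between preterm and near-term animals, and TIMP1 between near-term and newborn animals. The log2 difference of TIMP1 minus MMP2 within an array, centred on the 24 arrays, was, in ductus, -0.99 ± 0.30 in preterm, 0.01 ± 0.35 in near-term and 2.48 ± 0.47 in newborn animals (SD, n = 4 each). In aorta it was -1.15 ± 0.21 in preterm, -0.58 ± 0.15 in near-term and 0.24 ± 0.36 in newborn animals. From preterm to newborn animals this difference grew by 3.46 in ductus and by 1.39 in aorta. The values describe unequal change of the 2 probes and carry no test.

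**Figure D4:**
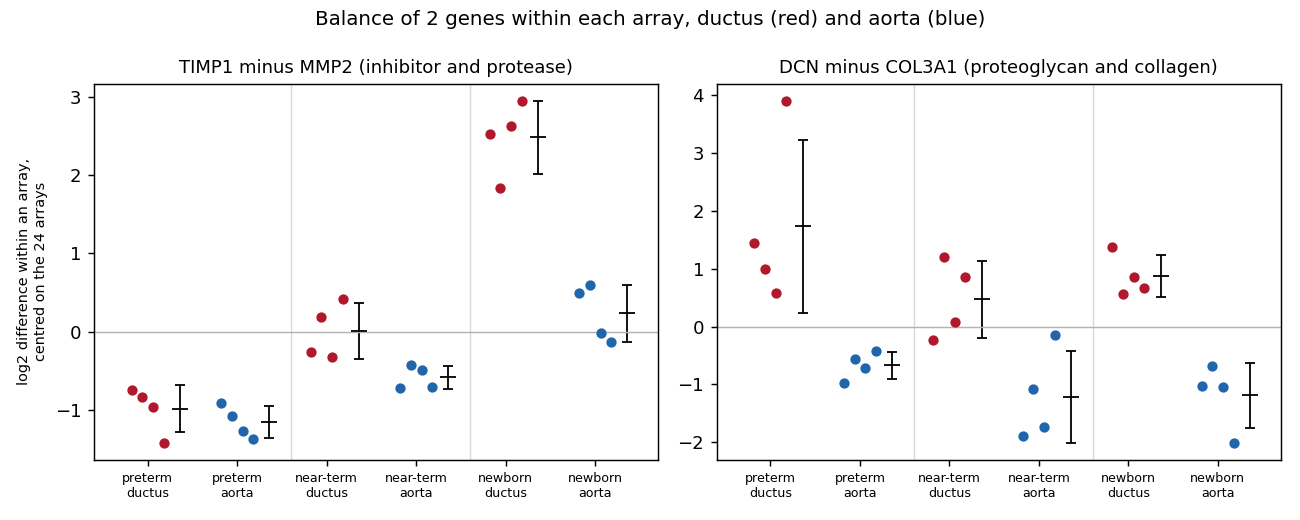
Log2 difference of TIMP1 minus MMP2 (left) and of DCN minus COL3A1 (right) within each array, centred on the 24 arrays (y axis), in the ductus (red) and aorta (blue) at each stage (x axis). Points are arrays, with the mean and SD of the 4 arrays in black. The newborn ductus arrays lie at 1.83 to 2.94 on the left.

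HYAL2, the hyaluronidase gene, showed small differences near the threshold of the test. Ductus arrays gave -0.04, -0.19, -0.11 and -0.17 in preterm, -0.24, -0.43, -0.52 and -0.14 in near-term, and 0.25, 0.59, 0.42 and -0.28 in newborn animals. In aorta it was 0.21, 0.40, 0.41 and 0.44 in preterm, -0.36, -0.38, -0.36 and 0.12 in near-term, and -0.10, -0.59, -0.11 and -0.40 in newborn animals. Newborn ductus replicate 4 lay within the range of newborn aorta, and the other newborn ductus arrays lay above it. Newborn ductus exceeded near-term ductus by 0.58 ± 0.17 (SE, adjusted p = 0.0374) and newborn aorta by 0.55 ± 0.17 (0.0497), a 1.46-fold higher level. The difference from newborn aorta was lost under 7 of 12 other settings (adjusted p 0.0512 to 0.325), with its lowest value, 0.29, under normexp background correction. It was also lost without newborn ductus replicate 1, 2 or 3 or newborn aorta replicate 2, 3 or 4 (adjusted p 0.0581 to 0.143). The difference from near-term ductus was lost under 4 of 12 other settings (adjusted p up to 0.299) and without near-term or newborn ductus replicate 1, 2 or 3, with adjusted p values from 0.0572 upwards.

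Preterm ductus minus preterm aorta was -0.49 ± 0.17 for HYAL2 and was not called (adjusted p = 0.268). The arrays did not overlap there, which held for 8.4% of all probes. Newborn aorta lay 0.67 ± 0.17 below preterm aorta and was called lower (adjusted p = 0.0186), a call lost under 4 of 12 other settings (up to 0.500) and without preterm aorta replicate 3 or 4 or newborn aorta replicate 2 (0.0513 to 0.0720). The change around birth in ductus exceeded that in aorta by 0.63 ± 0.25, which was not called (adjusted p = 0.468). Without newborn ductus replicate 4, newborn ductus exceeded preterm ductus by 0.55 (adjusted p = 0.0301), against 0.37 ± 0.17 with all arrays (0.167).

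Over the stages FBLN1 and DCN fell in the aorta. Newborn aorta lay below preterm aorta by 1.95 ± 0.24 for FBLN1 (adjusted p = 2.48e-05), a 3.86-fold lower level that ranked at percentile 1.14 of all probes. For DCN, newborn aorta was 2.21-fold lower than preterm aorta (adjusted p = 0.00662), a call lost under 3 of 12 other settings (up to 0.299). Of the 6 genes, 4 were called lower in newborn than in preterm aorta, FBLN1, DCN, MMP2 and HYAL2, against 5.16% of all probes called lower, and none was higher, against 3.85%, with 9.01% called in either direction. COL3A1 was the structural gene not called there, with a difference of -0.62 ± 0.49 (adjusted p = 0.580). For TIMP1, newborn minus preterm aorta was 0.57 ± 0.20 (adjusted p = 0.0828), which passed without preterm aorta replicate 1 (0.0396) or newborn aorta replicate 4 (0.0200). Cell markers also differed between newborn and preterm aorta, some higher and some lower. Of the 2 fibroblast markers tested, COL1A1 was at -0.60 (adjusted p = 0.289) and C3 at 0.39 (0.711). The 3 neutrophil markers tested were above 0 without a call. The smooth muscle marker CNN1 was higher in newborn than in preterm aorta (1.14, adjusted p = 0.00125), and the sum of CNN1 and MYLK was 65.8 to 153 in newborn aorta, against 44.5 to 68.7 in preterm aorta, in multiples of the 75th percentile. The endothelial marker KDR was lower (-0.92, adjusted p = 0.0243), but 2 of the 4 endothelial markers tested had a difference above 0, without a call. The endothelial sum was 0.587 to 1.11 in newborn aorta, against 1.05 to 1.47 in preterm aorta. The macrophage marker CD14 was higher (1.15, adjusted p = 0.00132), with a macrophage sum of 0.671 to 1.30 in newborn aorta, against 0.358 to 0.511 in preterm aorta. The part of these cells in the aortic differences of FBLN1, DCN, MMP2 and HYAL2 was not tested.

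In ductus, newborn minus preterm called 3 of the 6 genes. TIMP1 was 5.52-fold higher (adjusted p = 7.54e-08), against 6.95% of all probes called higher, and 2 genes were lower, MMP2, given above, and FBLN1 by 1.69-fold (adjusted p = 0.0355), against 8.64%, with 15.6% called in either direction. The FBLN1 call was lost under 4 of 11 other settings (adjusted p 0.0638 to 0.153) and without preterm ductus replicate 1 or 3 or newborn ductus replicate 1, 3 or 4 (adjusted p 0.0528 to 0.116). DCN in newborn ductus differed from preterm ductus by -0.45 ± 0.26 (adjusted p = 0.279, 95% interval -0.98 to 0.09). From near-term to newborn aorta FBLN1 dropped 2.54-fold (-1.34 ± 0.24, adjusted p = 0.00292, lost under 2 of 12 other settings), against -0.38 ± 0.24 in ductus (0.252). The difference of these FBLN1 changes was 0.97 ± 0.34 on the brightest probe (adjusted p = 0.385) and 1.16 ± 0.32 on the other (0.161), neither of which passed the test. For a difference between the vessels in the change from preterm to near-term animals, limma called 0 of the 6 genes, against 0% of all probes. There 0 of the 6 reached an unadjusted p under 0.05, against 1.59% of all probes. With array weights 0 were called.

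The probes of a gene followed each other over the 24 arrays, with Pearson's r from 0.883 for COL3A1 probes of different origin to 0.985 for the FBLN1 probes. Between genes, the brightest probes of MMP2 and FBLN1 had the highest r (0.65), and those of TIMP1 and FBLN1 the lowest (-0.43). These r values are descriptions over arrays that share groups and slides.

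Among 319 other named genes measured above background on all arrays, those most like TIMP1 over the 24 arrays were PTGS2, the inducible prostaglandin synthase (r = 0.93), IGFBP3 (0.92) and MCL1 (0.91). FBLN1 was most like BGN, the gene of the proteoglycan biglycan (0.84), CA11 (0.77) and TYMS (0.77). DCN was most like the ferritin gene FTH1 (0.84), IGFBP2 (0.76) and APOA1 (0.74), and MMP2 like CA11 (0.76), IGFBP2 (0.73) and FZD2 (0.70). COL3A1 was most like EEF1A1 (0.77), BCL2 (0.75) and HOXA7 (0.74). HYAL2 was most like NOS3, the endothelial nitric oxide synthase gene (0.70), UMPS (0.59) and CD40 (0.57). For each gene these are the 3 highest r of the 319, and the median r for TIMP1 was 0.01. They too describe arrays that share groups and slides. The arrays include newborn ductus, where TIMP1 stood apart, and preterm ductus replicate 4, which was low for COL3A1.

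Of 169 other genes listed for matrix structure, proteases, inhibitors, hyaluronan, collagen processing, receptors and growth factors, 34 were on the array under a name and 33 could be tested. In preterm and in near-term animals none of the 33 was called between the vessels, against 0.7% and 1.15% of all probes, and the medians were -0.47 and -0.35, against -0.21 and -0.12 for all probes. In newborn animals 2 were higher, against 4.84% of all probes, and 1 was lower in ductus, against 5.48%, with a median of -0.14, against -0.30 for all probes. IGFBP3, whose product binds insulin-like growth factors, was 3.11-fold higher (adjusted p = 0.00374, lost under 2 of 12 other settings) and CTSB, the gene of the lysosomal protease cathepsin B, 1.49-fold higher (0.0486). BGLAP, the osteocalcin gene, was 3.83-fold lower (0.0269). The CTSB call was lost under 6 of 12 other settings (adjusted p 0.0547 to 0.340) and that of BGLAP under 3 of 12 (up to 0.137). The CTSB call was also lost without newborn aorta replicate 1, 3 or 4 or newborn ductus replicate 1, 2 or 4 (adjusted p 0.0575 to 0.166), and that of BGLAP without newborn aorta replicate 4 or newborn ductus replicate 1, 3 or 4 (0.0550 to 0.0960).

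Of the 5 other structural genes tested, 0 were higher and 1 was lower in newborn ductus than in newborn aorta, against 4.84% and 5.48% of all probes. Of these, SPP1 was well above background on 0 newborn ductus arrays and 1 newborn aorta array, and COL4A3 on 1 and 2. The 3 measured on all newborn arrays were BGN at 0.04, COL1A1 at -0.46 and BGLAP at -1.94, on the log2 scale of newborn ductus minus newborn aorta. COL1A1, the gene of the main partner of type III collagen, was read lower in ductus than in aorta at each stage without a call: -0.50 in preterm (adjusted p = 0.527), -0.37 in near-term (0.928) and -0.46 in newborn animals (0.290). Of 7 other proteases, 1 was higher and 0 were lower in newborn ductus than in newborn aorta, against 4.84% and 5.48% of all probes. MMP7 was well above background on 0 newborn ductus and 2 newborn aorta arrays, MMP13 on 2 and 0, and MMP1 on 4 and 2. Neither MMP1, at 2.63 ± 1.44 (SE, adjusted p = 0.215), nor MMP7, at -3.06 ± 1.30 (0.131), was called. MMP14, which activates the MMP2 product, differed by -0.80 between newborn ductus and newborn aorta (adjusted p = 0.297). Of 2 other protease inhibitors, SERPINA1 and SLPI, none was called in any comparison. SERPINA1 was well above background on 0 newborn ductus arrays and 1 newborn aorta array, and SLPI on 3 and 2, so both were poorly measured there.

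Between stages, 3 of the 33 genes were higher, against 4.16% of all probes, and 1 was lower in newborn than in near-term ductus, against 6.85%. TGFB1, the gene of a growth factor that stimulates matrix synthesis, was 2.01-fold higher (adjusted p = 0.00234), IGFBP3 3.76-fold higher (0.000949) and CTSB 1.66-fold higher (0.0141), which was lost with quantile normalisation (0.0532). HMMR, the gene of a hyaluronan receptor that also binds the mitotic spindle, was 4.38-fold lower on its brightest probe (5.90e-05), and was not called with its probes averaged (0.0512). In newborn as against preterm ductus 2 genes were higher, IGFBP3 by 5.04-fold and CTSB by 1.81-fold, and 2 were lower, HMMR by 5.50-fold and IGF2 by 2.80-fold, the last over 3 preterm arrays because of an outlier flag. These counts stood against 6.95% of all probes called higher and 8.64% called lower.

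In aorta 2 of the 33 were lower in newborn than in near-term animals, HMMR (3.32-fold, adjusted p = 0.00163) and PDGFB (2.46-fold, 0.0290), against 3.36% of all probes, and none was higher, against 3.01%. The PDGFB call was lost under 5 of 12 other settings (adjusted p up to 0.239) and that of HMMR under 3 of 12. The PDGFB call was also lost without near-term aorta replicate 1, 3 or 4 or newborn aorta replicate 2 or 3 (adjusted p 0.0591 to 0.0983), and both calls were lost with probes averaged (0.302 for HMMR and 0.162 for PDGFB). In newborn as against preterm aorta 1 of the 33, BGLAP, was higher, against 3.85% of all probes, and 4, HMMR, IGF2, BGN and ITGB5, were lower, against 5.16%. BGN, like DCN the gene of a small leucine-rich proteoglycan, was 1.74-fold lower there (adjusted p = 0.00580), a call lost under 3 of 12 other settings (up to 0.148), and its difference between newborn ductus and newborn aorta was 0.04 (0.890). The ITGB5 call (adjusted p = 0.0472) was lost under 5 of 12 other settings, and that of IGF2 under 3 of 12. The ITGB5 call was also lost without any 1 of preterm aorta replicates 1 to 4 or newborn aorta replicates 2 to 4 (0.0781 to 0.111). None of the 33 was called between preterm and near-term animals in either vessel or for a difference of changes.

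Markers of other cells also moved in newborn ductus. The summed linear signal of the 4 endothelial markers that could be tested, of 7 listed, was 2.07 to 2.99 in newborn ductus and 0.587 to 1.11 in newborn aorta, in multiples of the 75th percentile, and SELP (2.66, adjusted p = 0.000150) and NOS3 (1.58, 0.00632) were called higher. For 3 of 8 macrophage markers the sum was 1.15 to 1.52 in newborn ductus and 0.671 to 1.30 in newborn aorta, with CD86 called higher (1.35, adjusted p = 0.0140), against 0.406 to 0.614 in near-term ductus. The 2 fibroblast markers, of 6 listed, summed to 1.67 to 5.55 in newborn ductus and 0.508 to 0.887 in newborn aorta, a difference carried by C3, the complement gene, which was called higher (2.61, adjusted p = 0.000271), while COL1A1 was at -0.46 (0.290). Neutrophil markers ran the other way: the 3 tested of 7 summed to 0.0187 to 0.196 in newborn ductus and 0.224 to 0.868 in newborn aorta. CATHL1B (-3.78, adjusted p = 0.0292) and BAC5 (-3.48, 0.0443) were called lower. Each was well above background on only 1 newborn ductus array, against 4 newborn aorta arrays, so the sizes of these differences rest on values near background. Of the 4 lymphocyte markers tested, 3 were well above background on 0 newborn ductus arrays, and none was called in any comparison. Of all spots, 68.7% to 72.0% were well above background on newborn ductus arrays, against 66.4% to 91.2% on newborn aorta arrays. The part of these cells in the differences of TIMP1, DCN and HYAL2 was not tested.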

How the data were processed

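RNA of ductus arteriosus and ascending aorta segments was hybridised by the authors to 24 single-colour Cy3 arrays, 4 for each of 6 groups, after linear amplification per the labels' protocols. The deposited files hold scanner output: per the file headers, Agilent Feature Extraction 9.5.3.1 gave each spot a background-corrected processed signal intensity, a mean signal intensity, a background intensity and flags. Genome coordinates of the probes were not used here, and no probe sequences are given.

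The main values were log2 of the processed signal minus the array's 75th percentile, computed here from the deposited intensities without control and outlier spots, with spots of a probe averaged. Tests covered the 14000 of 15008 probes that exceeded background clearly on 4 or more of 24 arrays. Group means over all 24 arrays were fitted with limma 3.58.1 in R 4.3.3, with Benjamini-Hochberg adjustment over all tested probes within each of 11 comparisons. The fit was tested on simulated data. Symbols came from the files and from RefSeq names of assembly ARS-UI_Ramb_v3.0: 1187 probes carry 685 symbols, and 13821 remain unnamed. A gene is given by its brightest probe. Of the other matrix genes, those called in at least 1 comparison were named, up to 6 per comparison, and for each member the 3 genes of highest r.

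The members, lists and tests were chosen with earlier results of these data known. The labels give replicate numbers but no pairing of vessels: same-numbered ductus and aorta arrays deviated together with r over 0.1 in 6 of 12 pairs (-0.59 to 0.82), so the fit has no replicate block. The series' design text gives 4 animals for each group, and the number of arrays limits the precision. Alternatives covered background, scaling, filter, samples in the fit, weights, detection limit, block, single arrays, probe choice and variance.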

Additional observations from a re-analysis of the deposited data

Results flagged for a closer look

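A test for a sample far from the others of its group flagged 4 of 72 sets of 4 arrays, where chance flags about 1 in 20. The third COL3A1 probe was at -3.53 in preterm ductus replicate 4, against -1.20 for the next array. On the brightest COL3A1 probe, newborn ductus replicate 2 was at 0.0869, against -0.503. HYAL2 was at 0.12 in near-term aorta replicate 4, against -0.36, and the second TIMP1 probe was at 4.96 in preterm ductus replicate 1, against 4.59.

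The change of TIMP1 from near-term to newborn animals differed between ductus and aorta by 1.71 on the log2 scale on the brightest probe (limma, adjusted p = 0.00429). On that probe all newborn arrays of each vessel lay above all its near-term arrays. On the second probe newborn aorta replicate 1, at 4.50, lay below near-term aorta replicate 3, at 4.65.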

How the results depend on the processing

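Of 768 values of the 6 genes under other settings, 712 kept their side of the threshold, 677 of them with their direction and 35 uncalled ones with another sign; 43 lost a call, 13 gained one and 0 called values turned. Higher TIMP1 in newborn ductus passed under every setting against newborn aorta, near-term ductus and preterm ductus. The number of the 6 genes called was less stable. With array weights it was 2 instead of 0 for preterm and 1 instead of 0 for near-term ductus minus aorta, and 4 instead of 1 for near-term minus preterm aorta. For near-term ductus minus aorta it was also 1 with quantile normalisation, with trend and robust variance and on arrays with a detection limit under 1.5. For newborn ductus minus aorta it was 1 instead of 3 on those arrays and with only the compared groups fitted. For near-term minus preterm it was 0 instead of 1 in each vessel with normexp, median centring, only the compared groups and the detection limit, and in aorta with probes averaged. For newborn minus near-term ductus it was 1 instead of 2 with median centring, only the compared groups and the detection limit. For newborn minus near-term aorta it was 1 instead of 2 with normexp and quantile normalisation, and 0 with median centring and only the compared groups. For newborn minus preterm aorta it was 1 instead of 4 with median centring and the detection limit, and 2 with only the compared groups. For the difference of changes around birth it was 0 instead of 1 with median centring and the detection limit. Fewer arrays enter the fits with only the compared groups or under the detection limit, which leaves preterm and near-term aorta 1 array each, assumed to vary like the others; the cause of the other changes was not tested.

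With single arrays left out, the count ran from 0 to 0, 0 to 1 and 2 to 3 for ductus minus aorta in preterm, near-term and newborn animals, from 1 to 1, 1 to 2 and 2 to 3 for the ductus stages (near-term minus preterm, newborn minus near-term, newborn minus preterm), from 0 to 1, 1 to 2 and 3 to 5 for the aorta stages in that order, and from 0 to 0 and 1 to 1 for the differences of changes. The shared spread without preterm ductus replicate 4, added after seeing the data, took HYAL2 in newborn ductus minus aorta to an adjusted p of 0.0512.

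With a replicate block, the count was 1 instead of 0 for near-term ductus minus aorta (DCN, adjusted p = 0.0305) and 1 instead of 2 for newborn minus near-term ductus (HYAL2, 0.0550), and no other call of the 6 genes changed. Of the other matrix genes named, BGLAP in newborn ductus minus aorta lost its call (0.0670). Of 12 same-numbered pairs, 5 correlated best with their own number.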
